A study of Sus scrofa with 6 samples.

Results

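Polycomb repressive complexes are the enzymes that place the repressive histone marks H3K27me3 and H2AK119ub1 on developmental genes. PRC2 trimethylates lysine 27 of histone H3 through EZH2 or its paralogue EZH1, held together with EED and SUZ12 and guided by accessory proteins such as JARID2. PRC1 ubiquitinates histone H2A through the RING-type ligases RNF2 (RING1B) or RING1, each paired with one PCGF protein that decides which form of PRC1 is built. In oocytes and early embryos these complexes are known for silencing developmental regulators and for maternal, H3K27me3-dependent imprinting.

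The subunits examined were EZH1, EZH2, EED, SUZ12, JARID2, RNF2, RING1, PCGF1, PCGF6 and BMI1, looked up by gene name in the deposited table of 17678 genes. Of these 10 genes, 8 were found by name. BMI1 has no name in the table and was recognised by its Ensembl identifier, ENSSSCG00000011081, and PCGF1 was not found and is not analysed here. The values come from porcine 2-cell embryos made by parthenogenetic activation of matured oocytes from crossbred Landrace, Yorkshire and Duroc ovaries, so that the embryos carry no paternal genome. Oocytes were injected before activation with negative control siRNA (NC) or with 3 siRNAs against SIN3A, the scaffold of the SIN3/HDAC corepressor complex (KD), and each group has 3 replicates of 20 pooled embryos collected 32 h after activation. At this stage the porcine genome is held to be mostly silent, so the messenger RNA measured is largely maternal. In such pooled material a fall in the number of transcripts per embryo cannot be told apart from a fall in their share of the RNA. Because poly(A) RNA was measured, a difference in the length of the poly(A) tail may also appear as a difference in abundance.

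The knockdown was visible in the target itself. SIN3A (ENSSSCG00000001880) had normalized abundances of 37361, 33964 and 32404 in NC and 3271, 1079 and 4173 in KD replicates 1 to 3, which limma estimated as a log2 fold change of -3.81 with a standard error of 0.31 (Benjamini-Hochberg adjusted p = 8.45e-06). All 9 oocyte and early embryo markers that were found had a mean of at least 10, with summed abundances of 32133 to 35808 in NC and 33787 to 37775 in KD libraries. The 13 cumulus and granulosa cell markers that were found summed to 1025 to 1250 in NC and 1008 to 1159 in KD libraries, of which VCAN and GREM1 gave the most, and 4 of them had a mean of at least 10. PTGS2 and PTX3, which cumulus cells induce around ovulation, were at 0 in all 3 KD libraries and at 0.762 to 3.13 in NC. CYP19A1 and FOXL2, granulosa cell genes, went the other way, at 0 to 3.55 and 1.05 to 2.53 in NC and 3.26 to 10.7 and 1.95 to 13.1 in KD libraries. Of the 4 cumulus markers tested, 2 had estimates above 0 and 2 below, and 0 were called. From the spacing of low values, depth was estimated at 7800000 to 12900000 reads per NC library and 10200000 to 15800000 per KD library.

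EZH2 with EZH1, RNF2 with RING1, and PCGF6 with BMI1 are paralogues or related genes, so it was first checked how much transcript sequence they share. The longest identical stretch within single coding exons of each pair is shown. Untranslated regions and exon junctions were not searched for it, so it is not a limit on what a read could match in both. All stretches were read from the RefSeq annotation and genome of Sscrofa11.1, each written on the strand of its gene, and capitals mark the longest unbroken run that is identical in both members of the pair.
EZH2: ggatgaGGCCTCCAGTTCTTCAG
EZH1: tgactgGGCCTCCAGTTCTTCAG
RNF2: ctcagtcaCAGCATTGAGGAaggactgaa
RING1: ctgagctcCAGCATTGAGGAggggctgcg
PCGF6: gacatagtgTACAAATTAGTgatcaatct
BMI1: gatattgtaTACAAATTAGTtccggggct

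The identical stretch of EZH2 and EZH1 was 17 bases long, that of RNF2 and RING1 12 bases, and that of PCGF6 and BMI1 11 bases. The EZH2 window lies at chr9:109441474-109441496 on the plus strand, in exon 10 of the longest mRNA, and the EZH1 window at chr12:20129317-20129339 on the plus strand, in exon 12. The RNF2 window lies at chr9:126275380-126275408 on the plus strand and the RING1 window at chr7:25253019-25253047 on the plus strand, both in exon 4. The PCGF6 window lies at chr14:114285182-114285210 and the BMI1 window at chr10:52589929-52589957, both on the minus strand and in exon 4. No stretch of 31 bases of the longest EZH1, EZH2, RING1 or PCGF6 mRNA occurred in a transcript of any other gene. SUZ12 was the subunit with the most shared sequence, with 9.4% of its 31-base stretches also present in transcripts of CRLF3, the gene that overlaps it on the other strand. EED shared 1.3% with LOC106504836, a long non-coding RNA gene that overlaps it on the other strand, and JARID2, RNF2 and BMI1 each shared less than that. The sources used here do not state that strand was kept, so reads from these overlaps may not be separated. The exons of all RefSeq isoforms of PCGF6 together overlap those of other genes over 2940 bases.

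No Polycomb subunit passed the test for a difference between KD and NC embryos. Of the 9 subunits found, 7 averaged at least 10 across all libraries and were tested with limma among 11986 genes, and 0 of them passed an adjusted p of 0.05, against 0.159% of all genes tested (0.0584% higher and 0.1% lower in KD). At an unadjusted p below 0.05 the count was also 0 of 7, against 4.61% of all genes. EED and RING1 lay under the minimum mean. In 0 of the 7 did the 3 KD values lie apart from the 3 NC values, against 9.79% of all genes. The median log2 fold change of the 7 was -0.060, with 6 below 0 and 1 above. Over all genes tested the median was 0.0026, with 5922 below 0 and 6064 above. The adjusted p of each tested subunit was 0.997. Without NC replicate 1, the estimates of EZH1, EZH2 and SUZ12 were above 0.

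**Figure D1:**
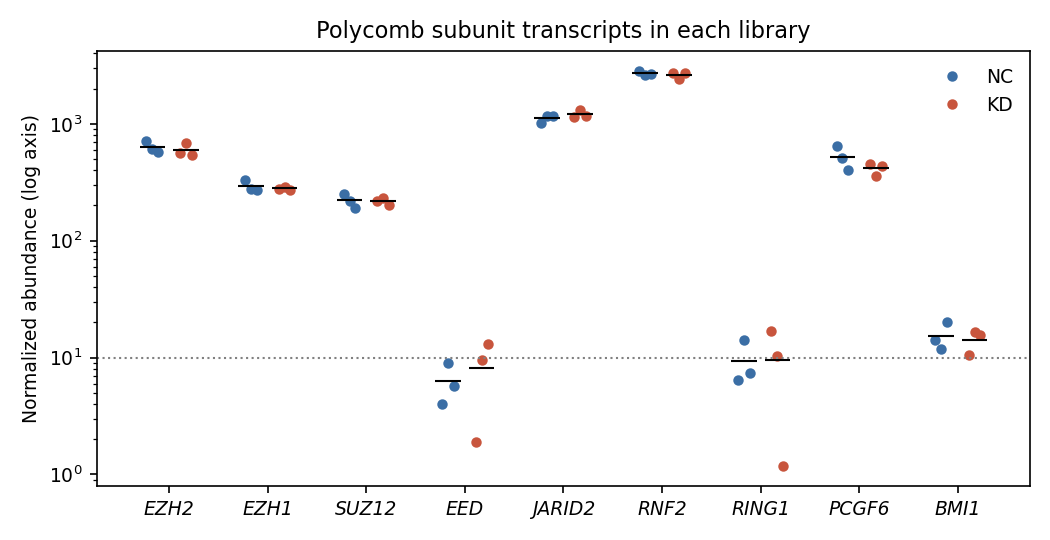
Normalized abundance of the 9 subunits found, on a log axis, in each of the 3 NC (blue) and 3 KD (red) libraries, with black bars at the group means and a dotted line at the minimum mean of 10 used for testing. NC and KD values overlap for every subunit, and EED, RING1 and BMI1 lie near or under the dotted line while RNF2 is highest in every library.

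EZH2 (ENSSSCG00000028840, chromosome 9 from 109384976 to 109450943) encodes the main H3K27 methyltransferase. Its abundance was 719, 604 and 573 in NC and 561, 679 and 540 in KD replicates 1 to 3. The highest KD value lay between the 2 highest NC values, and the group means were 632 ± 77.0 and 593 ± 74.9 (SD, n = 3 each). On the log2(value + 1) scale limma gave a log2 fold change of -0.091 with a standard error of 0.13, and its 95% confidence interval of -0.36 to 0.18 corresponds to 78.0% to 113% of the NC level. EZH1 (ENSSSCG00000017382, chromosome 12 from 20107744 to 20139764), the paralogue with the weaker methyltransferase activity, was at 332, 277 and 270 in NC and 278, 287 and 273 in KD embryos. The 3 KD values lay within the NC range, with a standard deviation of 7.33 against 34.1 in NC. The log2 fold change was -0.060 (standard error 0.14, 95% confidence interval -0.35 to 0.23).

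The share of EZH2 in the sum of both methyltransferase transcripts, taken per kilobase of mRNA, does not depend on the scaling between libraries. It was 66.4%, 66.5% and 65.9% in NC and 64.7%, 68.3% and 64.3% in KD replicates 1 to 3. The NC shares were almost alike, and the KD shares lay on both sides of them. The means were 66.3% ± 0.299 and 65.8% ± 2.18 (SD, n = 3 each; exact permutation test, two-sided p = 0.9, adjusted p = 1.0 over 3 shares). With 3 values against 3 this test cannot go below 0.1.

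The scaffolding subunits differed widely in level. SUZ12 (ENSSSCG00000017744, chromosome 12 from 42983597 to 43032671), which is needed for assembly and stability of PRC2, had abundances of 251, 221 and 191 in NC and 218, 233 and 200 in KD replicates 1 to 3. Its KD values lay inside the NC range, with means of 221 ± 30.0 and 217 ± 16.3 (SD, n = 3 each) and a log2 fold change of -0.022 (standard error 0.15, 95% confidence interval -0.35 to 0.30). Per kilobase of the longest mRNA, EZH2 exceeded SUZ12 by 4.20 to 4.89 times in the 6 libraries, a narrow range in NC and KD alike. This ratio changes with the length chosen. In NC, EZH2 and SUZ12 averaged 280 and 99.8 per kilobase of coding sequence, and 239 and 46.2 with median mRNA lengths.

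EED (ENSSSCG00000014915, chromosome 9 from 20123077 to 20158747), the subunit that reads H3K27me3 and stimulates the enzyme, was close to the limit of detection. Its abundance was 4.03, 8.93 and 5.77 in NC and 1.88, 9.45 and 13.02 in KD replicates 1 to 3, where a single read was estimated to be worth 0.719 to 1.46 depending on the library. The 3 KD values spanned the whole NC range. Without the minimum mean, its log2 fold change was 0.11 (standard error 0.66), with a 95% confidence interval of 41.9% to 277% of the NC level. Per kilobase, EZH2 exceeded EED by 40.0 to 288 times and SUZ12 exceeded it by 9.08 to 68.4 times.

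JARID2 (ENSSSCG00000001061, chromosome 7 from 11358243 to 11601715), an accessory protein that recruits PRC2 to chromatin, was the only tested subunit with an estimate above 0. Its abundance was 1024, 1175 and 1161 in NC and 1150, 1322 and 1161 in KD embryos. KD replicate 2 was the highest library and NC replicate 1 the lowest, while the other 4 lay within 1150 to 1175. The log2 fold change was 0.11 (standard error 0.10), with a 95% confidence interval of 93.0% to 126% of the NC level.

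RNF2 (ENSSSCG00000015568, chromosome 9 from 126172637 to 126284567), the ligase subunit that catalyses most H2A ubiquitination, was the most abundant of the 9 listed subunits found. It was at 2855, 2594 and 2646 in NC and 2710, 2423 and 2712 in KD replicates 1 to 3, and 2 of the 3 KD values lay between NC values. Its means of 2698 ± 138 and 2615 ± 166 (SD, n = 3 each) gave a log2 fold change of -0.046 (standard error 0.089). This was the narrowest interval of the subunits, 85.0% to 110% of the NC level. RING1 (ENSSSCG00000001477, chromosome 7 from 25251507 to 25255526), its paralogue, had values of 6.42, 14.1 and 7.36 in NC and 16.96, 10.3 and 1.18 in KD replicates 1 to 3. The highest and the lowest of the 6 values were both KD libraries. The group means were 9.30 ± 4.19 in NC and 9.47 ± 7.92 in KD (SD, n = 3 each). On the log2 scale, without the minimum mean, the estimate for RING1 was -0.36 (standard error 0.69, 95% confidence interval -1.79 to 1.07), and it was 0.54 without KD replicate 3. RNF2 made up 98.8% to 99.9% of the 2 ligase transcripts per kilobase in all 6 libraries, with means of 99.3% in both groups (exact permutation test, two-sided p = 1.0).

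PCGF6 (ENSSSCG00000020954, chromosome 14 from 114062457 to 114287458) belongs to the variant PRC1 that contains MGA, E2F6 and L3MBTL2. It showed the largest difference of the tested subunits, and that difference did not pass the test. Its abundance was 642, 508 and 403 in NC and 450, 361 and 437 in KD replicates 1 to 3. The 2 highest values were NC libraries, but NC replicate 3 lay below 2 of the 3 KD libraries. The means were 517 ± 120 and 416 ± 48.2 (SD, n = 3 each), a KD mean at 80.4% of that of NC, and the log2 fold change was -0.30 (standard error 0.16, 95% confidence interval -0.62 to 0.033, unadjusted p = 0.0750 and adjusted p = 0.997 from limma). By exact permutation the two-sided p was 0.3. The estimate ranged from -0.46 without NC replicate 3 to -0.13 without NC replicate 1. The residual standard deviation of PCGF6 on the log2 scale was 0.27, larger than in 91.7% of the 2951 tested genes within 2 times its mean, whose median was 0.15.

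BMI1 (chromosome 10 from 52586089 to 52596154) is a PCGF protein of canonical PRC1 and the subunit best known from stem cell renewal. Its abundance was 14.3, 11.8 and 20.1 in NC and 10.5, 16.5 and 15.6 in KD replicates 1 to 3. The groups overlapped over most of their range. Its log2 fold change of -0.10 (standard error 0.45) had a 95% confidence interval of 48.1% to 181% of the NC level. Of the PCGF6 and BMI1 transcripts together, PCGF6 made up 97.8% ± 1.06 in NC and 97.6% ± 0.765 in KD embryos per kilobase (SD, n = 3 each; exact permutation test, two-sided p = 0.8). PCGF2, another PCGF protein of PRC1, was at 264 per kilobase in NC and is not part of this share.

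**Figure D2:**
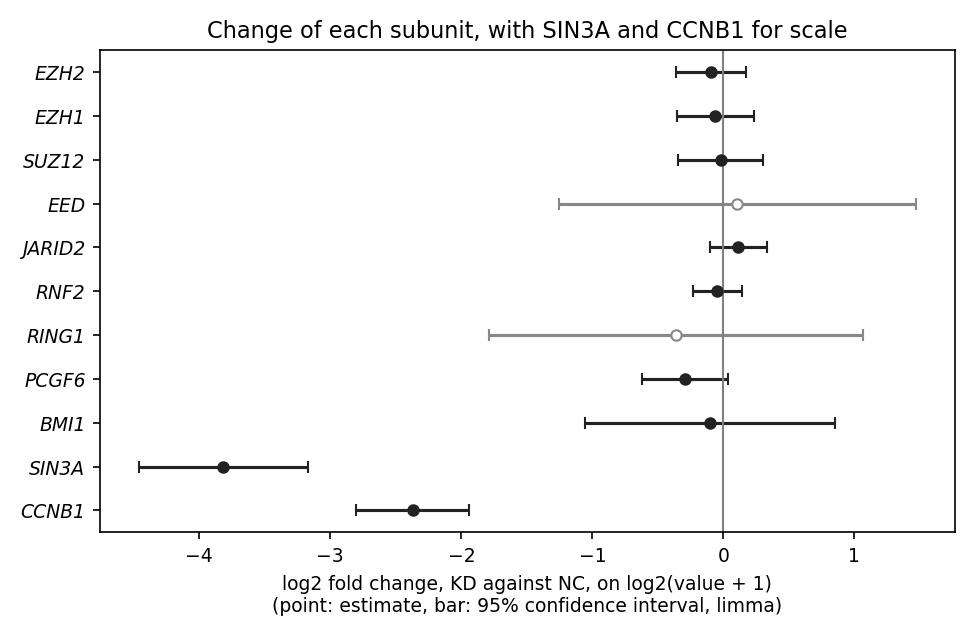
Log2 fold change of KD against NC on the log2(value + 1) scale with 95% confidence intervals from limma, for the 9 subunits and for SIN3A and CCNB1. Grey open points are EED and RING1, fitted without the minimum mean; all 9 subunit intervals include 0, whereas SIN3A lies at -3.81 and CCNB1 at -2.37.

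Because longer transcripts give more reads, levels of different subunits were compared per kilobase of the longest RefSeq mRNA. In NC embryos the order was RNF2 at 800 ± 41.0, PCGF6 at 223 ± 51.7, EZH2 at 212 ± 25.9, EZH1 at 108 ± 12.6, JARID2 at 85.9 ± 6.43, SUZ12 at 45.5 ± 6.17, RING1 at 5.37 ± 2.42, BMI1 at 4.72 ± 1.31 and EED at 2.17 ± 0.865 (normalized abundance per kilobase, SD, n = 3 each). The NC values of PCGF6 and EZH2 overlapped, as did those of RING1 and BMI1, and the other 6 pairs of neighbours did not overlap. The subunits thus fell into a group of 6 at 45.5 or more and a group of 3 at 5.37 or less. Among 14071 genes with a RefSeq length and any signal, however low, RNF2 stood above 94.8%, EZH2 above 80.9%, SUZ12 above 59.2% and EED above 22.6%. The place of JARID2 depended on the length chosen, since its mRNA models are 13037 bases at the longest and 5701 at the median, and it was at 85.9 per kilobase with the first and 196 with the second. With median lengths, 4 pairs of neighbours did not overlap in place of 6. Per kilobase of coding sequence JARID2 was at 297, above EZH2 at 280 and EZH1 at 130, and BMI1 at 15.7 was above RING1 at 7.61, while RNF2 stayed first at 2584 and EED last at 4.46.

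**Figure D3:**
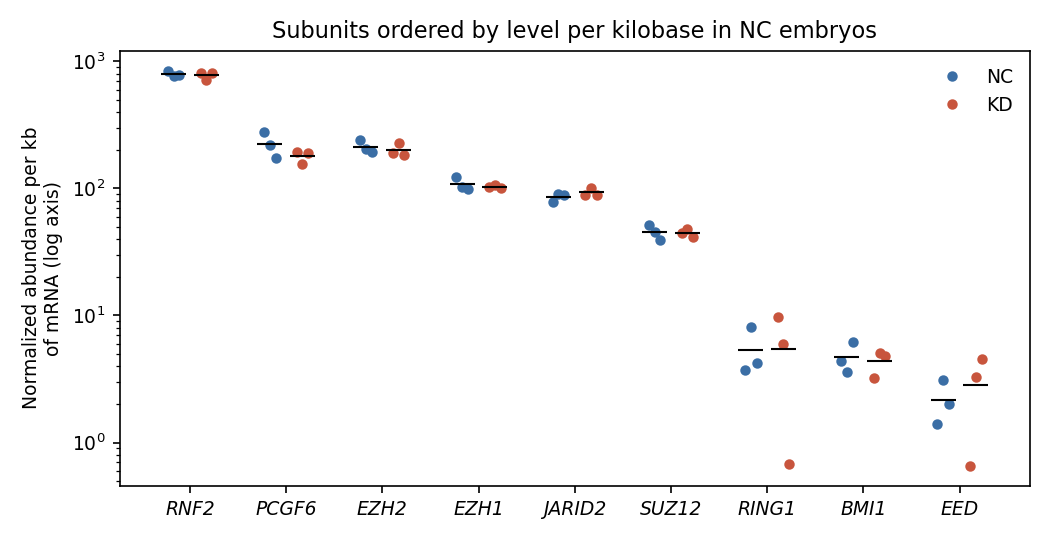
Normalized abundance per kilobase of the longest RefSeq mRNA, on a log axis, for the 9 subunits in the order of their NC means, with 3 NC (blue) and 3 KD (red) libraries each and black bars at the means. RNF2 is highest at a mean of 800 in NC, 5 subunits lie between 45.5 and 223, and RING1, BMI1 and EED lie at 5.37 or less.

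In NC replicate 1 and in KD replicate 2, several subunits at once were at the highest level of their own group. In NC replicate 1, EZH1, EZH2, SUZ12, RNF2 and PCGF6 were each at their highest of the 6 libraries, between 0.11 and 0.48 above their own means on the log2 scale, while JARID2 was 0.18 below its mean. The median deviation of the 7 subunits in that library was 0.20, against -0.011 for the wider Polycomb list and 0.014 for all genes tested. In KD replicate 2, 5 of the 7 subunits were the highest of the KD libraries, and PCGF6 and RNF2 were the lowest. Among the NC libraries alone, NC replicate 1 was likewise the highest for 5 of the 7 subunits, against 37.9% of all genes tested. KD replicate 2 was the highest KD library for 30.9% of all genes tested. The share of all genes at their highest of the 6 libraries was not computed. Without NC replicate 1, the log2 fold change was 0.033 for EZH1, 0.0055 for EZH2, 0.075 for SUZ12 and -0.13 for PCGF6.

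**Figure D4:**
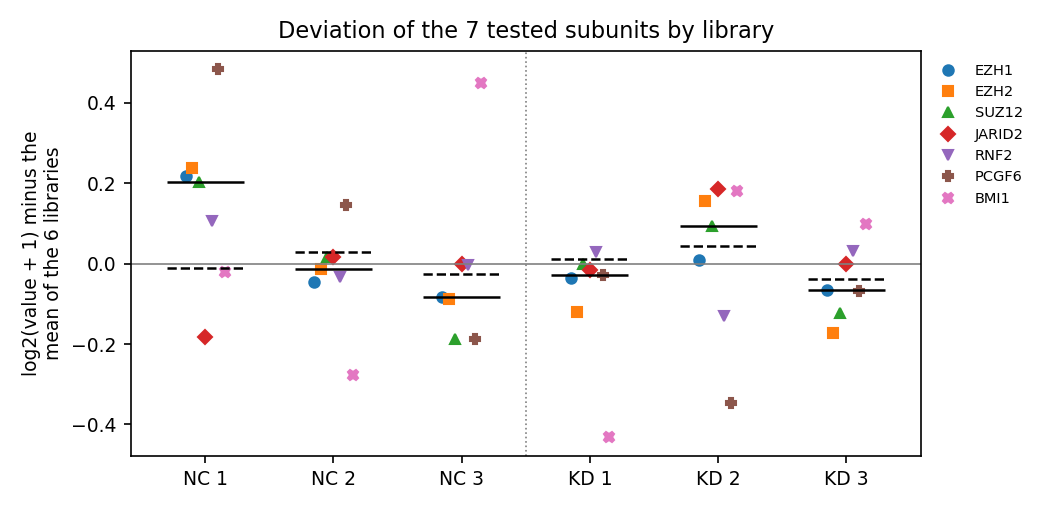
Deviation of each of the 7 tested subunits from its own mean over the 6 libraries, on the log2(value + 1) scale, by library; solid bars are the median of the 7 subunits and dashed bars the median of the wider Polycomb list. In NC replicate 1 the median of the subunits is 0.20 while that of the wider list is -0.011.

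For EZH2 the tested genes with the most similar profile over the 6 libraries were ENSSSCG00000004415, TMEM68 and SLC8A1, with Pearson r of 0.991, 0.979 and 0.979 on the log2 scale. For RNF2 they were NPM1, UBXN4 and TGDS, with r of 0.998, 0.995 and 0.991. With 6 points that share library depth and scaling, 93 genes had an r above 0.9 with EZH2 and 150 with RNF2, so these names are a description only.

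Other genes of the pathway did not pass the test either. The wider list comprised 62 further subunits and enzymes that add to, read or remove the Polycomb marks, of which 56 were found, 3 of them by identifier, and 55 were tested. None passed an adjusted p of 0.05 in limma, 0 higher and 0 lower, against 0.159% of all genes tested, and 1 had an unadjusted p below 0.05, against 4.61%. The groups did not overlap in 6 of the 55, 3 of them higher and 3 lower in KD, beside 9.79% of all genes tested. Their median log2 fold change was 0.027, with 30 above 0 and 25 below.

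Among the other PRC2 proteins, the histone-binding subunits RBBP4 and RBBP7, which PRC2 shares with SIN3 and NuRD, had means of 2650 and 5691 in NC and 2593 and 5397 in KD embryos. Their log2 fold changes were -0.036 (standard error 0.093) and -0.072 (standard error 0.090). The Polycomb-like proteins MTF2 and PHF19, which bring PRC2 to CpG islands, were abundant, at 519 and 1075 per kilobase in NC, and had log2 fold changes of 0.047 and 0.018. AEBP2, a cofactor found in the JARID2 form of PRC2, was low at 13.3 per kilobase, and its log2 fold change was -0.065 (standard error 0.27). All 9 PRC2 genes found were tested, and 0 were called.

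The PRC1 partners were unequal in level in the same way as the listed subunits. Of the CBX proteins that read H3K27me3 in canonical PRC1, CBX8 was at 418 per kilobase in NC, CBX6 at 69.4, CBX2 at 6.12 and CBX7 at 0.688. PCGF2, the closest relative of BMI1, was at 264 per kilobase in NC, against 4.72 for BMI1. PHC1, a polyhomeotic subunit of canonical PRC1, was at 328 per kilobase and its log2 fold change was -0.015 (standard error 0.11). RYBP, which replaces CBX proteins in variant PRC1, was at 124 per kilobase, and its log2 fold change was 0.077 (standard error 0.12). KDM2B and BCOR, which belong to the PCGF1 complex, were at 88.4 and 5.15 per kilobase, with log2 fold changes of 0.093 (standard error 0.12) and 0.17 (standard error 0.34). BCORL1, also of variant PRC1, was far above BCOR, at 397 per kilobase in NC. Of the partners of PCGF6, L3MBTL2 was at 132 per kilobase, MGA at 29.04 and E2F6 at 2.61, and the log2 fold change of L3MBTL2 was 0.16 (standard error 0.14). Of 30 PRC1 genes found, 29 were tested and 0 were called.

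Enzymes that remove the marks were also measured. BAP1, the catalytic H2AK119 deubiquitinase, had means of 1209 ± 71.8 in NC and 1080 ± 140 in KD embryos (SD, n = 3 each), and its log2 fold change was -0.17 (standard error 0.11). The H3K27 demethylases KDM6A and KDM6B were at 125 and 353 per kilobase in NC, and their log2 fold changes were -0.079 (standard error 0.11) and 0.12 (standard error 0.10). Of the 6 genes of the wider list whose groups did not overlap, SCML4, MBD5 and OGT were lower in KD, and PHF1, TFDP1 and BCORL1 were higher. SCML4, a Polycomb-group protein of the SCM family, was at 450, 370 and 397 in NC and 325, 361 and 316 in KD replicates 1 to 3, and the log2 fold change was -0.28 (standard error 0.13, unadjusted p = 0.0474, adjusted p = 0.997 from limma). For MBD5, which binds the deubiquitinase complex, it was -0.26 (standard error 0.13). For OGT, which glycosylates HCFC1, it was -0.25 (standard error 0.14). PHF1, a Polycomb-like protein, was at 421, 450 and 420 in NC and 565, 482 and 484 in KD replicates 1 to 3, a difference of 0.24 on the log2 scale (standard error 0.12, unadjusted p = 0.0593). For TFDP1 and BCORL1, which belong to variant PRC1, the differences were 0.14 (standard error 0.16) and 0.094 (standard error 0.085). The adjusted p of each of these genes was also 0.997 from limma.

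**Figure D5:**
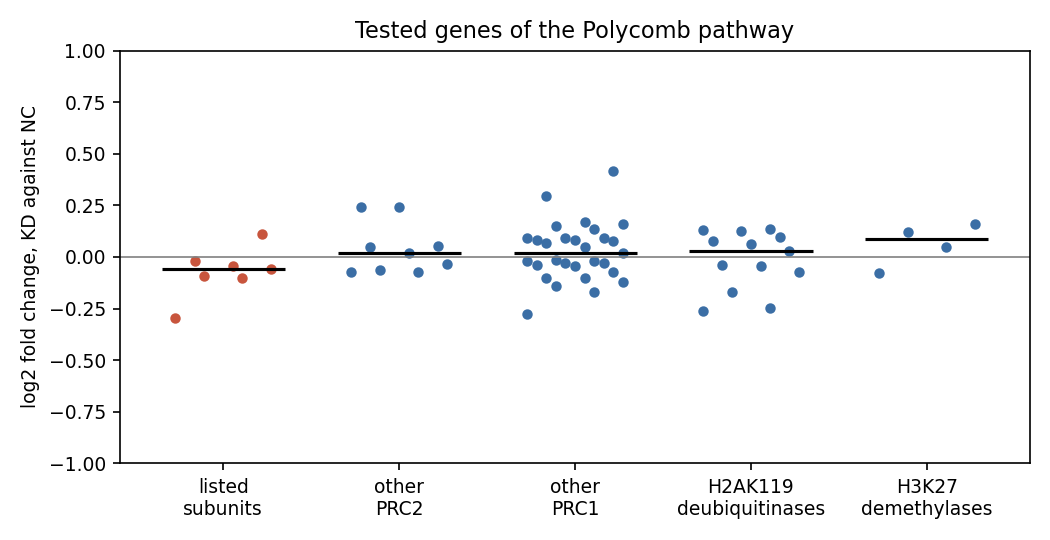
Log2 fold change of KD against NC on the log2(value + 1) scale for the 7 tested subunits (red) and the 55 tested genes of the wider list (blue), by role, with a black bar at each median. The values run from -0.30 to 0.42, and the medians lie between -0.060 and 0.085.

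Genes that Polycomb complexes classically repress, the HOX genes and other developmental regulators and cell cycle inhibitors, were also compared. Of 68 listed, 66 were found and 38 had a sufficient mean to be tested, and of these 0 were called by limma, against 0.159% of all genes tested, and 0 had an unadjusted p below 0.05, against 4.61%. Their median log2 fold change was -0.035, with 17 above 0 and 21 below. Transcripts of some of them were abundant in 2-cell embryos of both groups. PAX6, a regulator of eye and brain development, was at 5685 ± 390 in NC and 5411 ± 1012 in KD, GATA4, an endoderm and heart factor, at 2373 ± 279 and 2411 ± 122, and HOXD8 at 782 ± 51.8 and 747 ± 112 (SD, n = 3 each). Of the 38 HOX genes found, 20 had a mean under 10. The porcine genome is held to be mostly silent at this stage, so a loss of repression could hardly show as new transcripts. The comparison therefore cannot tell whether repression of these genes changed.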

How the data were processed

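Poly(A) RNA of 3 NC and 3 KD replicates was measured, grouped by the sample labels. The authors assigned reads to Sscrofa11.1 transcripts with Salmon 0.14.1 and compared groups with DESeq2. The deposited values are normalized signal per Ensembl gene, not counts. The median ratio of every library to the gene-wise geometric means was 1.01. Between 41.0% and 61.8% of low values lay within 0.02 of a step of whole reads, so no count test was run. A gene without a name was named by its Ensembl identifier where the reference table gave one.

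For genes averaging at least 10, log2(value + 1) was fitted in limma 3.58.1 (R 4.3.3), with a variance trend and Benjamini-Hochberg adjustment, after the fit was tested on simulated data. Such fold changes understate changes of low genes. Exact permutation tests used Python 3.11.15, with numpy 2.4.6, pandas 2.3.3, pysam 0.24.0 and matplotlib 3.10.9. Lengths and positions come from RefSeq. The members and gene lists were chosen with earlier results of these data known. Named genes were the listed subunits, SIN3A, CCNB1, 13 genes of the wider list, the 3 largest non-overlapping differences in it, and the 3 genes most like EZH2 and RNF2, the last given as a description with no alternatives. Other genes were named for their role, with their values already seen. EED and RING1, with a mean under 10, were fitted without the filter, also under each alternative, a choice made after seeing the data. The paper describes 3 independent replicates. No label states that they came from separate batches of oocytes, so p-values measure the spread between these samples. Share tests of PCGF1 were left out because it was not found.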

Additional observations from a re-analysis of the deposited data

How the results depend on the processing

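Results were recomputed with other pseudocounts (0.1 or 10), filters (none or a minimum mean of 100) and scalings (quantile or TMM-like), without the variance trend, with robust eBayes, with the replicate block, with GC and length corrected, with or without that block, and without each library. Under each of them 0 subunits and 0 genes of the wider list were called, and the lowest adjusted p of a subunit was 0.717, for PCGF6. The count over all genes was 19. It was 0 without the variance trend, with 622 genes at an unadjusted p below 0.05, 36 with the GC and length correction and 43 with that correction and the replicate block, both among the 10325 genes matched to RefSeq in place of 11986, 26 with the replicate block alone, and 11 to 19 when one library was left out. The lowest counts were 11 without KD replicate 1, 11 without KD replicate 2, 12 without NC replicate 2 and 12 without NC replicate 3. The cause was not tested. BMI1 was not tested at a minimum mean of 100. SIN3A and CCNB1 lost their calls, at adjusted p values of 0.423 each without the variance trend and of 0.469 and 0.439 with robust eBayes. Same-numbered NC and KD libraries had residual correlations of 0.109, 0.111 and 0.0872, and no label says that a number marks a shared batch. All 6 libraries correlated best with their own number, which is a hint from the data and not the design. The replicate block changed no call of a named gene. Under it 1 of 7 subunits, PCGF6, had an unadjusted limma p below 0.05, beside 676 of 11986 genes tested. Without NC replicate 3 it was again only PCGF6, beside 587 of 11967 genes tested.

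Of 452 comparisons of 27 named genes with an alternative, 421 kept direction and side of the threshold, 4 were weaker and 27 reversed. After correcting GC and length, blocked or not, the log2 fold change was 0.037 for SUZ12, 0.044 for RNF2, 0.0096 for RBBP4 and -0.025 for PHF19. With one library left out, it ranged from -0.12 to 0.033 for EZH1, -0.19 to 0.0055 for EZH2, -0.34 to 0.80 for EED, -0.12 to 0.075 for SUZ12, -0.074 to 0.0081 for RNF2, -0.98 to 0.54 for RING1, -0.27 to 0.097 for BMI1, -0.11 to 0.041 for RBBP4, -0.15 to 0.0031 for RBBP7, -0.31 to 0.15 for AEBP2, -0.013 to 0.042 for PHF19, -0.085 to 0.097 for PHC1 and -0.0094 to 0.52 for BCOR. RING1 stood at 0.54 without KD replicate 3. Without a change of sign, it ranged from -0.46 to -0.13 for PCGF6, 0.048 to 0.15 for JARID2, 0.0056 to 0.13 for MTF2, 0.0040 to 0.25 for L3MBTL2, 0.0035 to 0.20 for KDM6B, -0.17 to -0.0058 for KDM6A, 0.0013 to 0.19 for RYBP, 0.013 to 0.18 for KDM2B and -0.26 to -0.072 for BAP1. No difference in a share moved by more than the spread between replicates, although with one library left out that of EZH2 ranged from -1.75 to 0.220 points. The standard errors of EED and RING1 were 0.66 and 0.69, and 0.25 and 0.29 with a pseudocount of 10.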
